A study of Mus musculus with 7 samples.

Results

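The genes described here encode the contractile apparatus of smooth muscle and the transcriptional regulators that switch it on. They comprise 10 genes, *Acta2*, *Actg2*, *Myh11*, *Myl9*, *Tagln*, *Cnn1*, *Smtn*, *Lmod1*, *Srf* and *Myocd*, chosen by name as smooth muscle markers and regulators. All 10 were found among the 14732 genes of the deposited expression table. In smooth muscle, actin filaments slide along filaments of smooth muscle myosin when the regulatory light chain of myosin is phosphorylated, and a set of actin-binding proteins tunes the length, stability and tension of the filaments. Serum response factor (SRF) binds a DNA element called the CArG box near many of these genes, and its cofactor myocardin turns that binding into strong transcription of the contractile program. In the embryonic outflow tract (OFT), smooth muscle of the vessel wall arises from the neural crest and the second heart field. Several of the early smooth muscle genes, *Acta2*, *Tagln* and *Myocd* among them, are also transcribed in embryonic cardiomyocytes, whereas *Myh11* is a late and more selective marker of smooth muscle.

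Polyadenylated RNA was sequenced from whole OFTs of mouse embryos at embryonic day 11.5, in control embryos (wild type at *Gata6*) and in *Gata6 STOP/+* embryos, which carry a premature stop codon, made with CRISPR-Cas9, in 1 copy of *Gata6*. Each library came from pooled OFTs of several embryos, so variation between embryos within a pool was not measured, and the mutation is present in every cell type of the embryo. According to the labels 3 libraries were control (replicates 3, 4 and 5) and 4 were *Gata6 STOP/+* (replicates 1, 3, 4 and 5, called mutant libraries here), although the design text speaks of 3 pools for either genotype, with 4 OFT pairs in a pool, and all 7 were used. The depth on listed genes was 20930875, 29035529 and 17783655 reads in the control libraries and 28319373, 27519856, 24736761 and 34467710 reads in the *Gata6 STOP/+* libraries, each in the order of the replicate numbers given. Values are in CPM, that is, read counts scaled to a common library size. The *P*-values below set the difference between the groups against the spread between these pools within a group.

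*Gata6* (ENSMUSG00000005836), which encodes the zinc finger transcription factor GATA6, was at 315, 257 and 286 CPM in control libraries 3, 4 and 5 against 268, 203, 219 and 217 CPM in mutant libraries 1, 3, 4 and 5. *Gata6 STOP/+* replicates 3, 4 and 5 lay below every control library, and *Gata6 STOP/+* replicate 1 lay inside the control range. The log2 fold change was −0.34 (95% interval −0.56 to −0.12, limma adjusted *P*-value=0.389).

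The question asked of the smooth muscle genes is whether their transcripts differed between *Gata6 STOP/+* and control OFTs. With limma on log2(CPM + 0.5), 0 of the 10 passed an adjusted *P*-value threshold of 0.05, as did 0% of all 14732 genes. At an unadjusted *P*-value under 0.05 there was 1 of the 10, *Smtn*, against 1187 genes or 8.06% of the table. The count among the 10 was also 0 with the quasi-likelihood and likelihood ratio tests of edgeR and with DESeq2, which called 0, 105 and 88 genes of the whole table. *Smtn* was also the 1 gene of the 10 whose groups did not overlap, with every *Gata6 STOP/+* library below every control library, as was seen for 4.16% of all genes. None of the 10 had every *Gata6 STOP/+* library above every control library, which held for 4.31% of all genes. The log2 fold change was above 0 for 7 of the 10 genes and below 0 for 3, with a median of 0.15, against a median of −0.00073 over all genes. In RNA from whole OFTs, a different number of smooth muscle cells and a different amount of RNA per cell cannot be told apart.

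**Figure D1:**
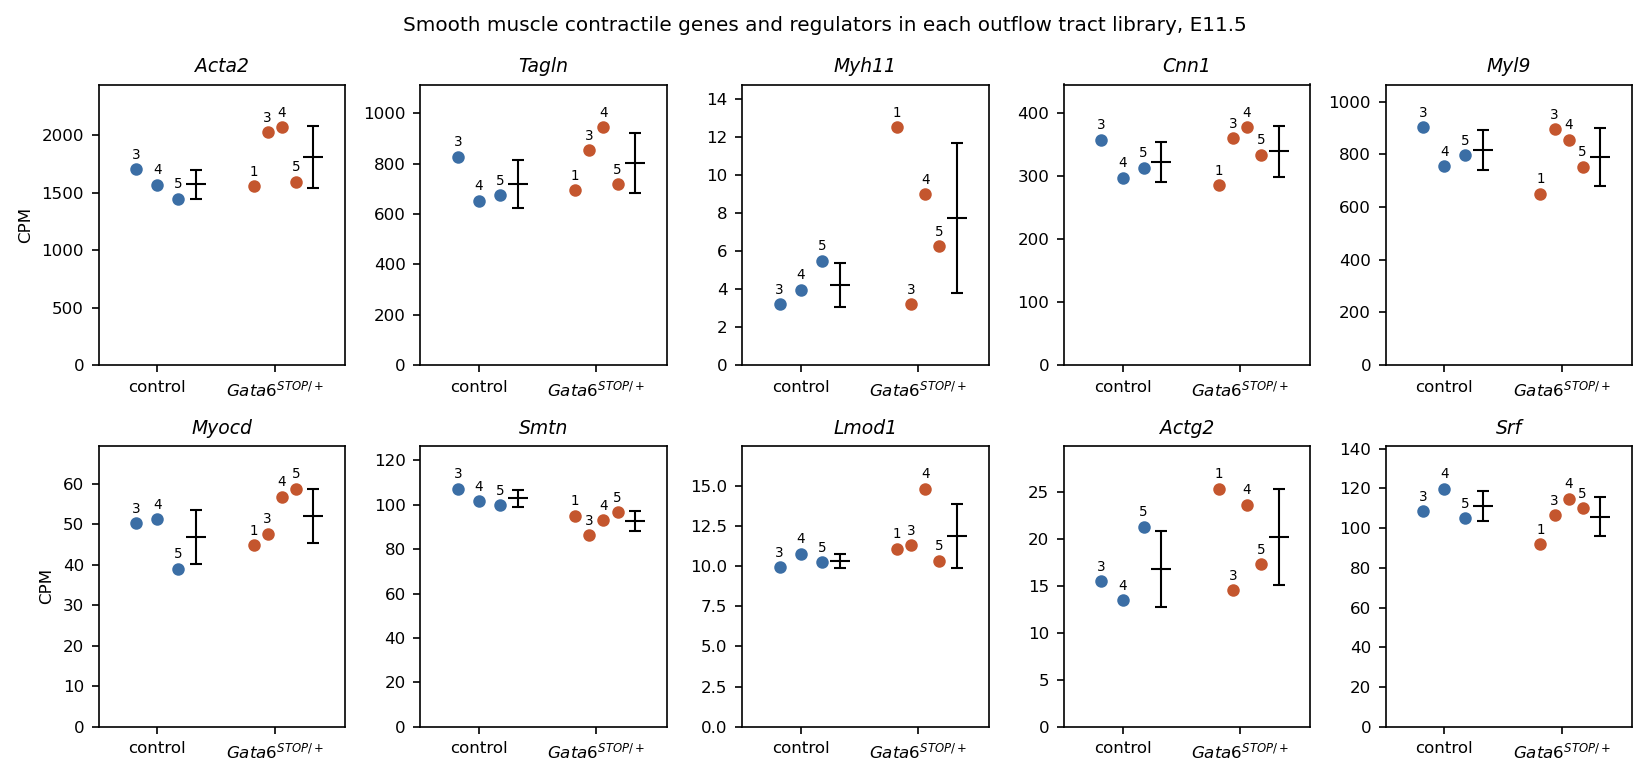
CPM (vertical axes, starting at 0) of the 10 smooth muscle genes in the 3 control libraries (blue) and the 4 *Gata6 STOP/+* libraries (orange). Points are single libraries with their replicate number, and the bars give the mean ± SD of a group. *Smtn* is the gene whose groups are apart, with the *Gata6 STOP/+* libraries between 86.2 and 96.7 CPM and the control libraries between 99.9 and 107 CPM.

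Among the actins, *Acta2* (ENSMUSG00000035783, chr19:34241090-34255590 in GRCm38, minus strand), which encodes smooth muscle α-actin, was at 1702, 1568 and 1449 CPM in control libraries 3, 4 and 5 against 1557, 2025, 2068 and 1596 CPM in mutant libraries 1, 3, 4 and 5. *Gata6 STOP/+* replicates 3 and 4 stood above every control library, and replicates 1 and 5 lay within the control range. The group means were 1573 ± 127 CPM (SD, n = 3) and 1811 ± 272 CPM (SD, n = 4). Its log2 fold change was 0.19 (95% interval −0.07 to 0.46, limma adjusted *P*-value=0.736), and ran from 0.13 without *Gata6 STOP/+* replicate 4 to 0.26 without *Gata6 STOP/+* replicate 1.

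*Actg2* (ENSMUSG00000059430, chr6:83512905-83536265, minus strand), the γ-actin of visceral smooth muscle, was sampled by 323 to 722 reads per library. It was at 15.5, 13.5 and 21.3 CPM in control libraries 3, 4 and 5 against 25.3, 14.5, 23.6 and 17.3 CPM in mutant libraries 1, 3, 4 and 5. Here *Gata6 STOP/+* replicates 1 and 4 were the highest of the 7 libraries, and replicate 3, which was high for *Acta2*, was among the lowest. For *Actg2* the log2 fold change was 0.25 (95% interval −0.18 to 0.69, limma adjusted *P*-value=0.790), and ran from 0.11 without control replicate 4 to 0.43 without control replicate 5.

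Among the myosin subunits, *Myh11* (ENSMUSG00000018830, chr16:14194535-14291372, minus strand) encodes the smooth muscle myosin heavy chain. Its level was low, with 67 to 356 reads per library. *Myh11* was at 3.21, 3.97 and 5.49 CPM in control libraries 3, 4 and 5 against 12.5, 3.19, 8.99 and 6.25 CPM in mutant libraries 1, 3, 4 and 5. *Gata6 STOP/+* replicates 1, 4 and 5 lay above every control library, and *Gata6 STOP/+* replicate 3 below every one. The means were 4.22 ± 1.16 CPM (SD, n = 3) in control and 7.73 ± 3.96 CPM (SD, n = 4) in *Gata6 STOP/+* libraries, so the spread within the mutant group was larger than the difference between the means. At 0.68, its log2 fold change was the largest of the 10 genes, and it had the widest interval, −0.09 to 1.46 (95%, limma adjusted *P*-value=0.673). Leaving out *Gata6 STOP/+* replicate 3 raised the estimate to 1.02 and removed the overlap of the groups, leaving out *Gata6 STOP/+* replicate 1 lowered it to 0.42, and the limma adjusted *P*-value lay between 0.225 and 0.941 over the 7 fits that each left out 1 library. Of the 6391 windows of 60 bases, the read length, in the principal *Myh11* transcript, 6 (0.0939%) also occurred in *Myh9* and *Myh10*, the nonmuscle myosin heavy chains. For the other 9 genes, including the actins, 0 such windows were shared with another gene.

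*Myl9* (ENSMUSG00000067818, chr2:156775420-156781658, plus strand) encodes the regulatory light chain whose phosphorylation starts contraction. It was at 902, 755 and 796 CPM in control libraries 3, 4 and 5 against 651, 894, 856 and 753 CPM in mutant libraries 1, 3, 4 and 5. *Gata6 STOP/+* replicate 1 was the lowest library for *Myl9*, in contrast to *Myh11*, for which it was the highest, and the groups overlapped. A log2 fold change of −0.06 was estimated (95% interval −0.30 to 0.19, limma adjusted *P*-value=0.920), and its direction turned when single libraries were left out, to 0.030 without *Gata6 STOP/+* replicate 1 and 0.01 without control replicate 3.

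Of the actin-binding proteins, transgelin (SM22α), encoded by *Tagln* (ENSMUSG00000032085, chr9:45929619-45936058, minus strand), cross-links actin filaments. *Tagln* was at 827, 653 and 674 CPM in control libraries 3, 4 and 5 against 693, 852, 944 and 719 CPM in mutant libraries 1, 3, 4 and 5. The order of the libraries resembled that of *Acta2*, with *Gata6 STOP/+* replicates 4 and 3 and control replicate 3 at the top in both genes. *Tagln* had a log2 fold change of 0.16 (95% interval −0.11 to 0.42, limma adjusted *P*-value=0.788), and ran from 0.07 without *Gata6 STOP/+* replicate 4 to 0.26 without control replicate 3, at which the groups no longer overlapped. Of the 1988 exon bases of *Tagln*, 1241 lie opposite exons of the antisense gene *Gm48529* and 108 opposite exons of *Pcsk7*. The library kit kept the strand, but whether the counting used it is not given in the sources used here. As deposited, *Gm48529* was at 25.2, 18.9 and 28.2 CPM in control libraries 3, 4 and 5 against 10.3, 14.2, 18.9 and 16.7 CPM in mutant libraries 1, 3, 4 and 5, or 1.48% to 4.18% of the CPM of *Tagln* in the same library. *Pcsk7* was at 32.3, 34.0 and 34.9 CPM in control libraries 3, 4 and 5 against 30.7, 29.0, 30.3 and 31.8 CPM in mutant libraries 1, 3, 4 and 5 (3.22% to 5.202% of the CPM of *Tagln*), without overlap (all genes, 4.16% in this direction). Both were chosen after their values were seen.

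*Cnn1* (ENSMUSG00000001349, chr9:22099216-22109630, plus strand) encodes calponin 1, which binds actin and restrains the myosin ATPase. It was at 357, 297 and 313 CPM in control libraries 3, 4 and 5 against 285, 359.6, 377 and 333 CPM in mutant libraries 1, 3, 4 and 5. *Gata6 STOP/+* replicates 4 and 3 were again the highest and *Gata6 STOP/+* replicate 1 was the lowest, so the mutant libraries enclosed the control libraries. Its log2 fold change was 0.07 (95% interval −0.15 to 0.29, limma adjusted *P*-value=0.892), and ran from 0.01 without control replicate 4 to 0.15 without *Gata6 STOP/+* replicate 1.

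*Smtn* (ENSMUSG00000020439, chr11:3517523-3540612, minus strand) encodes smoothelin, an actin-binding protein of contractile smooth muscle. It was at 107, 102 and 99.9 CPM in control libraries 3, 4 and 5 against 95.1, 86.2, 93.2 and 96.7 CPM in mutant libraries 1, 3, 4 and 5. All 4 *Gata6 STOP/+* libraries lay below all 3 control libraries, and *Gata6 STOP/+* replicate 3, high for *Acta2*, *Tagln* and *Cnn1*, was the lowest. The means of 103 ± 3.84 CPM (SD, n = 3) and 92.8 ± 4.63 CPM (SD, n = 4) put *Smtn* in the mutant at 90.2% of control. Its log2 fold change of −0.15 had the narrowest interval of the 10 genes, −0.28 to −0.02 (95%), which left out 0, but the limma adjusted *P*-value was 0.567, and between 0.570 and 0.853 when 1 library was left out. Exons of *Smtn* overlap 2 antisense genes, *Gm11946* over 714 and *Gm11947* over 39 of its 4380 exon bases, neither of them in the deposited table, so reads of these genes cannot be told apart from those of *Smtn* if strand was not used.

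*Lmod1* (ENSMUSG00000048096, chr1:135324807-135368065, plus strand) encodes leiomodin 1, which nucleates actin filaments in smooth muscle. With 183 to 364 reads per library, *Lmod1* was at 9.93, 10.8 and 10.2 CPM in control libraries 3, 4 and 5 against 11.1, 11.3, 14.8 and 10.3 CPM in mutant libraries 1, 3, 4 and 5. Control libraries were close together, *Gata6 STOP/+* replicates 1, 3 and 4 lay above them, and *Gata6 STOP/+* replicate 5 fell among them. Between the groups the log2 fold change was 0.18 (95% interval −0.09 to 0.46, limma adjusted *P*-value=0.758) and was 0.08 without *Gata6 STOP/+* replicate 4, the highest library. With control replicate 4 or *Gata6 STOP/+* replicate 5 left out, the groups no longer overlapped.

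The regulators were *Srf* (ENSMUSG00000015605, chr17:46548329-46556175, minus strand) and *Myocd* (ENSMUSG00000020542, chr11:65176561-65269989, minus strand), which encode SRF and myocardin. *Srf* was at 109, 119.8 and 105 CPM in control libraries 3, 4 and 5 against 91.8, 107, 115 and 109.9 CPM in mutant libraries 1, 3, 4 and 5. Only *Gata6 STOP/+* replicate 1 fell below the control range of *Srf*, and the other mutant libraries lay inside it. Its log2 fold change of −0.07 (95% interval −0.25 to 0.11, limma adjusted *P*-value=0.858) moved to −0.0069 when *Gata6 STOP/+* replicate 1 was left out. *Myocd* was at 50.2, 51.2 and 39.0 CPM in control libraries 3, 4 and 5 against 44.8, 47.7, 56.7 and 58.7 CPM in mutant libraries 1, 3, 4 and 5. *Gata6 STOP/+* replicates 4 and 5 were the highest for *Myocd*, control replicate 5 was the lowest, and the groups overlapped. For *Myocd* the log2 fold change was 0.15 (95% interval −0.11 to 0.41, limma adjusted *P*-value=0.790), and 0.03 without control replicate 5.

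**Figure D2:**
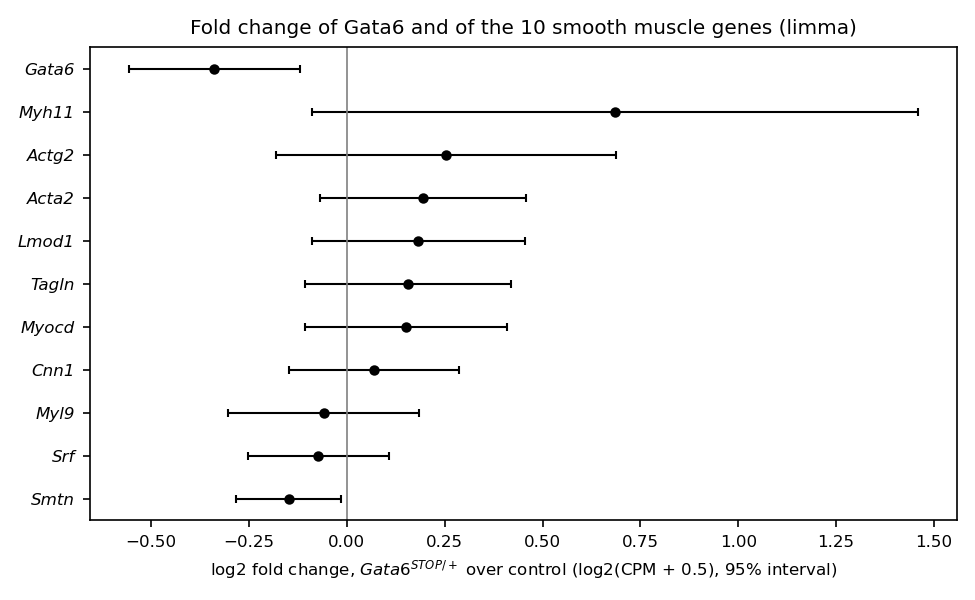
Log2 fold change of *Gata6 STOP/+* over control libraries (horizontal axis, on the log2(CPM + 0.5) scale) for *Gata6* and the 10 smooth muscle genes (vertical axis). Points are limma estimates from 3 control and 4 *Gata6 STOP/+* libraries and lines are 95% intervals, which include 0 for every smooth muscle gene except *Smtn*, at −0.15.

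The levels of the genes were set side by side as CPM per kb, the CPM divided by the merged exon length. In control libraries the order of the means in CPM per kb was *Acta2* (716), *Myl9* (704), *Tagln* (361), *Cnn1* (118), *Srf* (38.4), *Smtn* (23.5), *Actg2* (10.8), *Myocd* (7.29), *Lmod1* (2.61) and *Myh11* (0.556). *Acta2* and *Myl9* could not be separated, since their control libraries overlapped (660 to 775 against 650 to 776 CPM per kb), and the ranges of all other neighbours in the control order were apart. *Gata6 STOP/+* libraries had the same order of mean CPM per kb, from *Acta2* at 825 and *Myl9* at 679 down to *Lmod1* at 3.01 and *Myh11* at 1.02, with *Acta2* and *Myl9* again the 1 pair whose libraries overlapped. In CPM per kb, transcripts for smooth muscle α-actin and the regulatory light chain were thus far more abundant than those for the smooth muscle myosin heavy chain, in both genotypes. With the principal transcript length in place of merged exons, chosen after the data were seen, the order of CPM per kb was the same in both groups.

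The shares that smooth muscle isoforms took within their families, computed from CPM per kb and chosen after their values were seen, give each library its own reference. *Acta2* made up 11.8%, 11.4% and 11.4% of the CPM per kb of the 6 actin genes in control libraries 3, 4 and 5 against 14.4%, 13.8%, 15.8% and 13.0% in mutant libraries 1, 3, 4 and 5. Of the 21 shares computed, 3 had every *Gata6 STOP/+* library above every control library (*Acta2*, *Acta1* and *Myocd*) and 0 had every one below, against 4.31% and 4.16% of all genes in CPM, and in CPM the groups of *Acta2* overlapped. Shares within a family are ratios over the same sum and so depend on each other. The percentages of single genes in CPM are therefore not a like baseline for them. The share of *Acta2* had means of 11.5 ± 0.227% (SD, n = 3) and 14.2 ± 1.197% (SD, n = 4). The share of *Actc1*, the cardiac α-actin and the most abundant of the 6, was 55.8%, 58.4% and 53.8% of CPM per kb in control libraries 3, 4 and 5 against 46.3%, 57.3%, 52.0% and 53.5% in mutant libraries 1, 3, 4 and 5. The groups overlapped for *Actc1*, and *Gata6 STOP/+* replicate 1 had the lowest share. For *Acta1*, the skeletal α-actin, the share of CPM per kb was between 3.42% and 3.70% in control and between 3.90% and 4.88% in *Gata6 STOP/+* libraries. With *Actc1* left out of the sum, which was tried after the values were seen, the groups overlapped for both, since *Acta2* was at 27.3% of CPM per kb in control replicate 4 and 26.8% in *Gata6 STOP/+* replicate 1, and *Acta1* at 8.23% and 7.27% in these libraries. *Myh11* accounted for 0.246%, 0.320% and 0.432% of the CPM per kb of *Myh11*, *Myh9*, *Myh10* and *Myh14* in control libraries 3, 4 and 5 against 0.830%, 0.279%, 0.682% and 0.465% in mutant libraries 1, 3, 4 and 5. *Myh10*, a nonmuscle myosin heavy chain, took most of that sum in every library, from 68.8% to 74.2%. The groups overlapped for the shares of *Actg2*, *Cnn1*, *Tagln*, *Lmod1* and *Srf* in CPM per kb. *Actg2* took 0.138% to 0.236% of the 6 actins in control and 0.140% to 0.3301% in *Gata6 STOP/+* libraries, *Cnn1* 24.9% to 27.5% and 25.5% to 30.0% of the 3 calponins, *Tagln* 64.1% to 67.5% and 66.0% to 70.1% of the 3 transgelins, and *Lmod1* 5.21% to 6.16% and 5.31% to 9.38% of the 3 leiomodins. Of *Srf*, *Myocd*, *Mrtfa* and *Mrtfb* together, *Srf* took 62.3% to 66.3% and 60.2% to 64.6%. For *Myocd* the share of CPM per kb was 11.1% to 12.97% in control and 13.03% to 15.1% in *Gata6 STOP/+* libraries, without overlap.

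The 10 genes did not move as 1 block across the libraries. *Gata6 STOP/+* replicate 4 was the highest library for 4 genes (*Acta2*, *Tagln*, *Cnn1* and *Lmod1*), whereas *Gata6 STOP/+* replicate 1 was the highest for 2 (*Myh11* and *Actg2*) and the lowest for 3 (*Cnn1*, *Myl9* and *Srf*). The summed CPM of the 10 genes was 4082, 3574 and 3512 in control libraries 3, 4 and 5 against 3466, 4399, 4556 and 3701 in mutant libraries 1, 3, 4 and 5, so the 4 mutant libraries spanned a wider range than the control libraries.

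**Figure D3:**
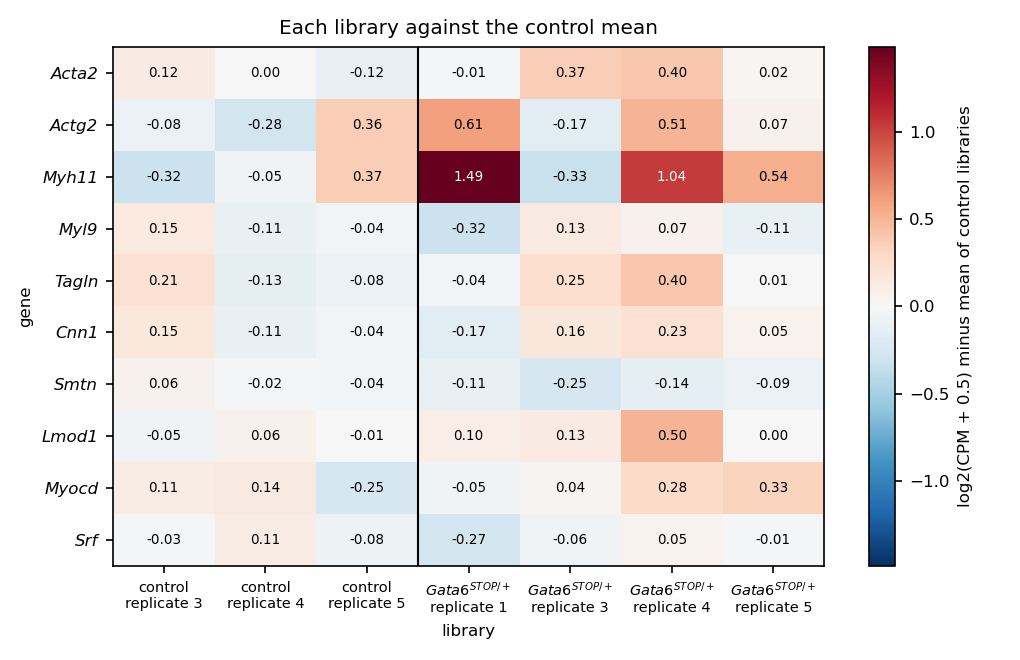
Log2(CPM + 0.5) of each smooth muscle gene (rows) in each library (columns) minus the mean of the 3 control libraries, with the value printed in each cell and the color scale in log2 units. *Myh11* is 1.49 above the control mean in *Gata6 STOP/+* replicate 1, 1.04 above it in replicate 4 and 0.33 below it (−0.33) in replicate 3, whereas *Acta2* is 0.37 and 0.40 above it in replicates 3 and 4.

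Marker lists of other cells of the OFT were read in the same libraries. The 7 listed pericyte and mural markers, none of them at 0, summed to 782, 855 and 813 CPM in control libraries 3, 4 and 5 against 1122, 669, 956 and 824 CPM in mutant libraries 1, 3, 4 and 5. In this sum *Gata6 STOP/+* replicates 1 and 4 were thus highest and replicate 3 lowest, as for *Myh11*. The most abundant gene of that list, *Rgs5*, a regulator of G protein signaling typical of pericytes, was at 515 CPM in *Gata6 STOP/+* replicate 1 and 254 CPM in *Gata6 STOP/+* replicate 3, with control libraries between 256 and 319 CPM. Not every gene of the list followed the order of the sum. *Abcc9* was at 19.7 CPM in *Gata6 STOP/+* replicate 1, its lowest library, and at 28.3 CPM in replicate 3. *Ndufa4l2* was at 10.6 and 12.1 CPM in these libraries, and both were named after their values were seen. The 16 cardiomyocyte markers summed to 25099, 24735 and 22966 CPM in control libraries 3, 4 and 5 against 18477, 25891, 23780.3 and 23278 CPM in mutant libraries 1, 3, 4 and 5. *Gata6 STOP/+* replicate 1 was the lowest and *Gata6 STOP/+* replicate 3 the highest in this sum. The most abundant cardiomyocyte marker was *Myh7*, a cardiac myosin heavy chain, at 7155 and 9241 CPM in those libraries. *Myh7* itself was highest in control replicate 3, at 9585 CPM. The 7 listed neural crest and glial markers summed to 262, 298 and 231 CPM in control libraries 3, 4 and 5 against 226, 183, 202 and 197 CPM in mutant libraries 1, 3, 4 and 5. *Ets1*, a transcription factor that endothelial cells also express, was the most abundant gene of the list. Every *Gata6 STOP/+* library was below every control library in the sum, but not when *Ednrb* or *Erbb3*, receptors for endothelin and neuregulin, was left out, which was tried after the values were seen. Without *Ednrb* the sum was 207 CPM in *Gata6 STOP/+* replicate 1 and 203 CPM in control replicate 5, and without *Erbb3* it was 155 and 152 CPM in these libraries, so the groups overlapped. The part of these cell types in the values of the smooth muscle genes was not tested.

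Of 22 further genes for smooth muscle contraction and its cytoskeleton, 0 had a limma adjusted *P*-value under 0.05, 13 had a log2 fold change above 0 and 9 below, and the median was 0.03. Every *Gata6 STOP/+* library was above every control library for 4 of the 22, *Synpo2*, *Itga1*, *Cald1* and *Ppp1r12a*, against 4.31% of all genes, and below every one for 0, against 4.16%. *Synpo2*, which encodes the actin-bundling protein synaptopodin 2, was at 159, 165 and 157 CPM in control libraries 3, 4 and 5 against 215, 188, 190.3 and 179 CPM in mutant libraries 1, 3, 4 and 5 (log2 fold change 0.26, limma adjusted *P*-value=0.315). The α1 integrin gene *Itga1*, a collagen and laminin receptor of smooth muscle, was at 126, 125 and 123 CPM in the control libraries and at 140.2, 145, 145 and 161 CPM in the *Gata6 STOP/+* libraries (log2 fold change 0.24, limma adjusted *P*-value=0.289). The control values of *Itga1* lay close together, and the nearest mutant library was *Gata6 STOP/+* replicate 1. *Cald1*, which encodes caldesmon, an actin-binding inhibitor of the myosin ATPase, was at 281, 303 and 300.3 CPM in control and at 385, 306, 329.9 and 349.6 CPM in *Gata6 STOP/+* libraries (log2 fold change 0.21, limma adjusted *P*-value=0.522). *Ppp1r12a*, the targeting subunit of myosin phosphatase and named after its values were seen, was at 175.9 ± 8.56 CPM (SD, n = 3) and 189 ± 6.65 CPM (SD, n = 4). Its groups nearly touched, at 183.3 CPM in control replicate 5 and 183.9 CPM in *Gata6 STOP/+* replicate 3 (log2 fold change 0.10, limma adjusted *P*-value=0.707). The most abundant genes of the list by CPM were *Tpm1* (tropomyosin 1), between 1623 and 2106 CPM over the 7 libraries, *Flna* (filamin A), between 1168 and 1660.2 CPM, and *Myl6* (the essential myosin light chain), between 707 and 854 CPM, and their groups overlapped.

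Among 32 listed regulators of the SRF and myocardin program, which include myocardin-related factors, Notch pathway genes, GATA factors and repressors, 0 had a limma adjusted *P*-value under 0.05. The log2 fold change was above 0 for 23 and below 0 for 9, with a median of 0.06, and 2 had every *Gata6 STOP/+* library above every control library, against 4.31% of all genes. *Hey2*, a Notch effector and repressor of the myocardin program, was at 75.5, 90.5 and 88.4 CPM in control libraries 3, 4 and 5 against 93.3, 99.4, 99.7 and 95.7 CPM in mutant libraries 1, 3, 4 and 5 (log2 fold change 0.20, limma adjusted *P*-value=0.513, and 0.12 without control replicate 3). *Mamstr*, a cofactor of the myocardin family, was near the detection filter, at 1.92, 2.07 and 1.74 CPM in control and 2.21, 2.50, 3.21 and 3.29 CPM in *Gata6 STOP/+* libraries (log2 fold change 0.44, limma adjusted *P*-value=0.543). The 3 most abundant regulators by CPM, *Ybx1* (a cold shock protein that binds DNA and RNA), *Csrp2* (a LIM protein of smooth muscle) and *Gata4* (a cardiac GATA factor), had overlapping groups at 747 to 884, 344 to 480.4 and 346 to 439.8 CPM.

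Of 7 listed SRF target genes of the growth factor branch, which acts through ternary complex factors in place of myocardin, 0 passed the limma threshold, 2 had a log2 fold change above 0 and 5 below, and all groups overlapped (median −0.08). Their most abundant genes by CPM were *Mcl1*, *Ier2* and *Egr1*, at 174 to 206, 46.1 to 57.2 and 17.9 to 25.3 CPM over the 7 libraries. Of 21 paralogs of the smooth muscle genes, 0 passed the limma threshold, 7 had a log2 fold change above 0 and 14 below, with a median of −0.07. *Acta1* passed with the likelihood ratio test of edgeR with the replicate block. *Myl12a*, a nonmuscle regulatory myosin light chain, was the 1 paralog without overlap (all genes, 4.16% in this direction), at 553, 477 and 508 CPM in control libraries 3, 4 and 5 against 453, 467, 464 and 446 CPM in mutant libraries 1, 3, 4 and 5 (log2 fold change −0.16, limma adjusted *P*-value=0.559, and −0.11 without control replicate 3). The most abundant paralogs by CPM were *Actc1*, *Actg1* and *Actb*, at 3688 to 6186, 2255 to 2821 and 1909.7 to 2199 CPM, with overlapping groups.

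The profile of the 10 genes over the 7 libraries, as the mean of their standardized log2 values, was compared with that of every gene with a mean of at least 5 CPM by the root mean square difference, where 0 means the same shape. Of the members themselves, *Tagln* (0.442), *Cnn1* (0.532), *Acta2* (0.585) and *Lmod1* (0.598) were nearest to this mean, to which they contribute, and *Actg2* (1.198), *Myh11* (1.25) and *Smtn* (1.43) were farthest. The median difference over the other genes was 1.30, so the profiles of *Myh11*, *Actg2* and *Smtn* were about as far from the mean profile as an ordinary gene. Outside the 10, the nearest of 11617 genes were *Ramp2* (0.200), *Actn1* (0.205), *Snapc4* (0.227), *Fgf1* (0.229) and *Paqr9* (0.272). *Ramp2* encodes a partner of the adrenomedullin receptor, *Actn1* the actin cross-linker α-actinin 1, *Snapc4* a subunit of the complex that activates small nuclear RNA genes and *Fgf1* a fibroblast growth factor. Against *Acta2* alone, a comparison added after the values were seen, *Tagln* differed by 0.364, whereas *Actg2* differed by 1.36 and *Myh11* by 1.38. Against *Myh11* alone, also added later, *Actg2* was the nearest of the other members at 0.410.

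Promoters of 300 bases around the gene start, from RefSeq (GRCm38.p6), were given for 6 of the 10 genes, *Acta2*, *Cnn1*, *Lmod1*, *Myl9*, *Smtn* and *Srf*, and not for *Actg2*, *Myh11*, *Myocd* and *Tagln*. The RefSeq start lay inside the GENCODE span given above, 217 bases from its start for *Acta2*, 1320 bases for *Smtn* and 6 to 44 bases for the other 4, and distances below are counted from the RefSeq start. The promoters were searched on both strands for the CArG box, which SRF binds, because the genes are known targets of SRF. An exact CArG box occurred in 2 of the 6 promoters (*Myl9* and *Srf*), against 1.63% of 32817 promoters of all genes and 1.31% of the 13871 promoters of genes in the deposited table. A CArG-like box, in which 1 of the 6 middle bases is C or G and which was added after the promoters had been searched, occurred in 2 of the 6 (*Acta2* and *Myl9*), against 8.50% of all promoters and 7.76% of those of genes in the table. The windows below carry the exact box in *Myl9* (chr2:156775293-156775322, plus strand, the box 161 to 152 bases before the gene start) and in *Srf* (chr17:46556225-46556254 and chr17:46556205-46556234, minus strand, 82 to 73 and 62 to 53 bases before it), and both CArG-like boxes of *Acta2* (chr19:34255438-34255467 and chr19:34255388-34255417, minus strand, 84 to 75 and 34 to 25 bases before it). They are written 5′ to 3′ on the strand of the gene with the box in capitals.
Myl9 CArG box: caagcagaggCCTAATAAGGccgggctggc
Srf first CArG box: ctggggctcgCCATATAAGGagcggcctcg
Srf second CArG box: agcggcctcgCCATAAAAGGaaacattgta
Acta2 first CArG-like box: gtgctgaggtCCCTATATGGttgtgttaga
Acta2 second CArG-like box: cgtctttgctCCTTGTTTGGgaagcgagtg

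The same 6 promoters were searched for the letters that GATA factors bind, AGATAA and its variant with a final G (AGATAG), as well as TGATAA and its variant with a final G (TGATAG), and 0 held any of them, against 29.8% of all promoters and 18.8% of those of genes in the table. TATAAA occurred in 1 of the 6, *Srf*, 38 to 33 bases before the gene start on the strand opposite to the gene, against 13.6% of all promoters and 7.44% of those of genes in the table. A match shows that the letters are in the window, and the lack of one shows that they are not in these 300 bases.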

How the data were processed

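Per the labels and the study's methods, the authors trimmed reads with cutadapt, quantified genes with RSEM on GRCm38 and scaled them with edgeR. The methods name TMM, a trimmed mean of log ratios between libraries, and a filter that dropped genes that fewer than 3 samples held at 1 CPM or more. The deposited values are described as normalized counts, in all likelihood CPM relative to a library size adjusted by TMM. All values were whole multiples of 1 step per library, so reads were recovered for 100% of the values (tolerance 0.001). Groups were taken from the labels. Genes were tested on log2(CPM + 0.5), a scale that understates the change of low genes, with limma 3.58.1 (mean-variance trend, two-sided, R 4.3.3) over 7 libraries, without covariates, with Benjamini-Hochberg adjustment over 14732 genes and a threshold of 0.05. The fits were tested on simulated data. Alternatives were 2 other constants (0.1 and 2), a minimum mean of 5 CPM, median-of-ratios scaling, a replicate block, tests of the recovered reads with edgeR 4.0.16 and DESeq2 1.42.0, and leaving out each library. Positions, exon lengths and overlaps came from GENCODE M21, in which 14723 of the identifiers were found.

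The smooth muscle genes and the gene lists were chosen with earlier results of these data known. In each list the genes past the threshold, up to 3 genes without overlap between groups with the largest change and the 3 most abundant were named, and the 5 genes with the most similar profile. Other names are marked as chosen later. The 11 marker lists were for cardiomyocytes, pericytes and mural cells, endothelium and endocardium, neural crest and glia, cushion mesenchyme, epicardium, pharyngeal epithelium, skeletal muscle precursors, red cells, macrophages, and sympathetic and enteric neurons.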

Additional observations from a re-analysis of the deposited data

How the results depend on the processing

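None of the 10 smooth muscle genes passed the threshold under any of the 17 alternatives, and 9 of them kept the direction of their log2 fold change in all 17. *Myl9* turned from −0.06 to 0.030 with the replicate block in limma and in both edgeR tests, to 0.030 without *Gata6 STOP/+* replicate 1 and to 0.01 without control replicate 3, and lay between −0.12 and 0.030 over the libraries left out. Over all genes, the count past the threshold was 0 with limma, 1 with the constant 0.1 (*Ube2n-ps1*, named after its values were seen), 14 with the replicate block in limma, 105 with the likelihood ratio test of edgeR, 13 and 118 with the quasi-likelihood and likelihood ratio tests with the replicate block, 88 with DESeq2, and 0 to 13 with 1 library left out, most without control replicate 4. In the gene lists it was 0 with limma, 2 with the replicate block in limma (*Alas2* and *Hba-a2*, red cell genes), 1 with the likelihood ratio test of edgeR (*Ednrb*), 1 and 12 with the quasi-likelihood and likelihood ratio tests with the replicate block, and 1 with DESeq2 (*Pdgfra*). The single call of the blocked quasi-likelihood test was *Alas2*. Those of the blocked likelihood ratio test were *Ednrb*, *Postn*, *Pdgfra*, *Acta1* and the listed red cell genes other than *Hba-a1*. With 1 library left out, 1 to 2 of the 10 smooth muscle genes had no overlap, against 11.1% to 19.1% of all genes (8.47% with all 7 libraries).

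The deviations of same-numbered libraries correlated at −0.0465, −0.266 and −0.0174, so no shared pattern was seen over the genes compared. These correlations cannot exclude that libraries were paired by replicate number, since a pairing may touch only a part of the genes. Because replicate 1 has no control partner, the replicate block leaves *Gata6 STOP/+* replicate 1 without influence on the fold change. The log2 fold change of *Gata6* was −0.42 and past the threshold in 1 alternative, the blocked likelihood ratio test of edgeR (adjusted *P*-value=0.0164, between that and 0.730 over the alternatives). Values of *Myh11* rest on 67 to 356 reads per library, and those of *Lmod1* and *Actg2* on 183 to 722.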

Other observations

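In the marker lists, 0 genes passed the limma threshold, and 1 gene each of the cushion mesenchyme, neural crest and cardiomyocyte lists was below every control library in every mutant library, against 4.16% of all genes. The 9 cushion mesenchyme markers had a median log2 fold change of −0.12, and 8 were below 0. *Pdgfra*, a receptor for platelet-derived growth factor on mesenchymal cells, was the 1 of these without overlap between groups, at 311, 227 and 279.6 CPM in control libraries 3, 4 and 5 against 223, 159, 167 and 223 CPM in mutant libraries 1, 3, 4 and 5 (log2 fold change −0.50, limma adjusted *P*-value=0.354). The abundant matrix genes of this list, *Col3a1* at 1364 to 2449 CPM, *Vcan* at 1600.1 to 2063 CPM and *Col1a1* at 1035 to 1343 CPM, had overlapping groups, and *Col3a1* was highest in *Gata6 STOP/+* replicate 1 and lowest in *Gata6 STOP/+* replicate 3, as *Myh11* was. The list did not share this order. *Vcan* was highest in control replicate 3 and *Col1a1* in *Gata6 STOP/+* replicate 5. *Dcn*, named after its values were seen, was highest in *Gata6 STOP/+* replicate 3, at 51.3 CPM. In the neural crest and glial list, 6 of 7 genes were below 0 (median −0.24). *Ednrb*, the endothelin receptor of neural crest cells, was at 22.5, 81.0 and 27.8 CPM in control libraries 3, 4 and 5 against 18.6, 17.2, 14.1 and 16.5 CPM in mutant libraries 1, 3, 4 and 5 (log2 fold change −1.14, limma adjusted *P*-value=0.393, and −0.58 without control replicate 4, its highest library). *Ets1* was at 95.8 to 133 CPM, with overlapping groups. *Erbb3*, a neuregulin receptor, was at 104, 70.39 and 78.6 CPM in control libraries 3, 4 and 5. Mutant libraries 1, 3, 4 and 5 had 70.51, 58.0, 64.9 and 61.1 CPM of *Erbb3* (log2 fold change −0.39, limma adjusted *P*-value=0.419). Its groups overlapped only through control replicate 4 and *Gata6 STOP/+* replicate 1, which were nearly equal.

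Of the 16 cardiomyocyte markers, 13 had a log2 fold change below 0 (median −0.13), and *Tnni1*, the slow skeletal troponin I of the embryonic heart, was below in every mutant library, at 932, 966 and 917 CPM in control libraries 3, 4 and 5 against 628, 916, 831 and 795 CPM in mutant libraries 1, 3, 4 and 5 (log2 fold change −0.26, limma adjusted *P*-value=0.598, and −0.15 without *Gata6 STOP/+* replicate 1). The lowest log2 fold change of the list, −2.27, was that of *Nppa*, named after its values were seen (limma adjusted *P*-value=0.455). *Nppa* was at 32.1, 174 and 18.3 CPM in control libraries 3, 4 and 5 against 3.26, 28.3, 6.63 and 11.8 CPM in mutant libraries 1, 3, 4 and 5. Its groups overlapped, and control replicate 4 stood far above the other libraries. The titin gene *Ttn* was at 1962 to 2271 CPM and the cardiac myosin gene *Myh6* at 1430.0 to 2258 CPM. Pericyte and mural markers had 4 of 7 log2 fold changes above 0 (median 0.02), with *Cspg4* at 157 to 212 CPM and *Pdgfrb* at 107 to 201 CPM. Endothelial and endocardial markers had 9 of 10 above 0 (median 0.08), with *Tek*, *Cdh5* and *Pecam1* at 166 to 201, 149 to 212 and 124 to 195 CPM. Of 6 epicardial markers, 4 were above 0 (median 0.03), with *Upk3b*, *Tbx18* and *Wt1* at 167 to 229.6, 47.6 to 80.8 and 32.5 to 51.5 CPM.

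Red cell genes were above 0 in 9 of 9 (median 0.39) and varied most within groups, with *Hbb-y* at 988 to 3102 CPM, *Hba-x* at 526 to 1544 CPM and *Hba-a1* at 478 to 1371 CPM, all overlapping. With the replicate block, limma called *Alas2* and *Hba-a2*, and the likelihood ratio test of edgeR called every red cell gene of the list except *Hba-a1*. Macrophage markers were above 0 in 1 of 6 (median −0.12), with *Csf1r*, *C1qb* and *C1qa* at 15.0 to 32.4, 6.19 to 19.6 and 5.12 to 11.7 CPM. Both listed pharyngeal epithelium markers, *Krt8* at 43.4 to 73.6 CPM and *Krt18* at 26.5 to 43.1 CPM, and the 1 listed skeletal muscle precursor marker, *Tcf15* at 0.942 to 1.48 CPM, had overlapping groups. Of 5 markers of sympathetic and enteric neurons, 2 were higher in every mutant library, against 4.31% of all genes, *Stmn2*, a microtubule regulator, at 16.7, 14.1 and 18.9 CPM in control and 22.9, 19.8, 23.5 and 21.7 CPM in *Gata6 STOP/+* libraries (log2 fold change 0.40, limma adjusted *P*-value=0.333) and *Th*, tyrosine hydroxylase, at 1.29, 1.14 and 1.51 CPM in control and 2.28, 2.43, 2.24 and 2.36 CPM in *Gata6 STOP/+* libraries (log2 fold change 0.64, limma adjusted *P*-value=0.285). *Tubb3*, a neuronal tubulin and the most abundant gene of this list, went the other way, at 46.2, 26.2 and 40.04 CPM in control libraries 3, 4 and 5 against 23.7, 27.6, 32.8 and 27.4 CPM in mutant libraries 1, 3, 4 and 5 (log2 fold change −0.39, 95% interval −0.76 to −0.02, limma adjusted *P*-value=0.595, and between −0.63 and −0.22 with 1 library left out), with overlapping groups. The summed CPM of the list was 59.2 ± 12.3 (SD, n = 3) in control and 56.1 ± 4.82 (SD, n = 4) in *Gata6 STOP/+* libraries. *Elavl4* was at 2.97 to 3.58 CPM, with overlapping groups.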
